A study of Mus musculus with 6 samples.

Results

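The mouse genes named Zfp and a number encode zinc finger proteins, and they were read here in oocytes on either side of meiotic maturation. The array measured 218 such genes with 319 probe sets, leaving out Zfp57 and 6 genes whose symbols start with Zfp36. A gene was kept when its brightest probe set, the one with the highest mean over all 6 arrays, had a mean above 6 on the deposited log2 scale in at least 1 of the 2 stages. That left 121 Zfp genes, of 7048 genes at the same level and 11429 genes measured in all. The members were thus chosen by their measured levels in these same arrays: 78 had a mean above 6 in both stages, 34 only before maturation and 9 only after it. A gene of the last 2 kinds had to differ to some degree, so counts over those genes are given as descriptions.

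The stages were the fully grown oocyte at the germinal vesicle stage (GV), arrested in meiotic prophase with an intact nucleus, and the egg at metaphase II (MII), ovulated and waiting for sperm. Mice 22 to 24 days old gave both, and their strain is not named in the labels. GV oocytes came from large antral follicles 44 to 46 h after 5 IU of eCG, a hormone that drives follicle growth, and were freed of cumulus cells by pipetting. MII eggs came from the oviducts 14 h after 5 IU of hCG, which triggers ovulation, given to mice already treated with eCG; cumulus cells were taken off with hyaluronidase and a visible first polar body was required. The collection medium of both stages held 5 µM milrinone, a phosphodiesterase inhibitor that keeps GV oocytes from resuming meiosis. Each sample pooled 300 oocytes, 10 ng of total RNA went through 2 rounds of amplification, and 3 samples per stage were described as biological replicates. Removal of the cumulus cells, the hormone treatment and the site of collection differed together with the stage and cannot be told apart from it.

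Most proteins of this kind carry arrays of C2H2 fingers, small folds held by a zinc ion that read DNA bases in a row. Many also have a KRAB domain, which recruits the corepressor Trim28 and the histone methyltransferase Setdb1 and so silences retroelements, and their genes lie in clusters that grew by duplication. Others bind RNA, ribosomes or the spindle. Meiotic maturation runs with very little transcription, and stored messenger RNAs are degraded or given longer poly(A) tails during it. Because each value comes from a pool of oocytes, fewer cells with a transcript and less transcript per cell cannot be told apart.

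Over all probe sets, 2 arrays of 1 stage correlated at 0.988 to 0.991 and 2 arrays of unlike stage at 0.885 to 0.906. The median of all probe sets was 6.10 to 6.12 on GV arrays and 5.47 to 5.49 on MII arrays, so the deposited values do not share a median, and a difference depends on how the arrays are scaled. Of 17 oocyte markers, 16 were measured, with a mean log2 value of 11.05 to 11.09 on GV arrays and at most 10.13 on MII arrays. For 13 measured of 18 granulosa and cumulus markers the mean was 4.71 to 4.79 in GV and 4.39 to 4.51 in MII; Fshr, Inhba, Nr5a2 and Col4a2 were called lower in MII and Col4a1 higher, and their part in the results was not tested.

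Among the 121 kept Zfp genes, 59 were lower in MII and 16 higher at an adjusted p under 0.05 by limma, which is 48.8% and 13.2% of them, and 46 did not pass the test; with array medians made equal the balance turned, to 36 lower and 55 higher. Of all genes at the same level, 46.0% were lower and 14.1% higher, so the Zfp shares lay near the background. A change of at least 2-fold was called for 36 Zfp genes downwards, or 29.8% against 32.0% of all genes at that level, and for 2 upwards, or 1.65% against 1.84%. A change of at least 4-fold was called for 17 of the 121 downwards, beside 15.3% of all genes at the level, and for 0 upwards. The stages did not overlap for 83 Zfp genes, or 68.6% against 68.1%. Of the 46 uncalled genes, 41 had a 95% interval of the difference that stayed within 2-fold either way, which makes 41 of the 121 beside 38.2% of all genes at the level.

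**Figure D1:**
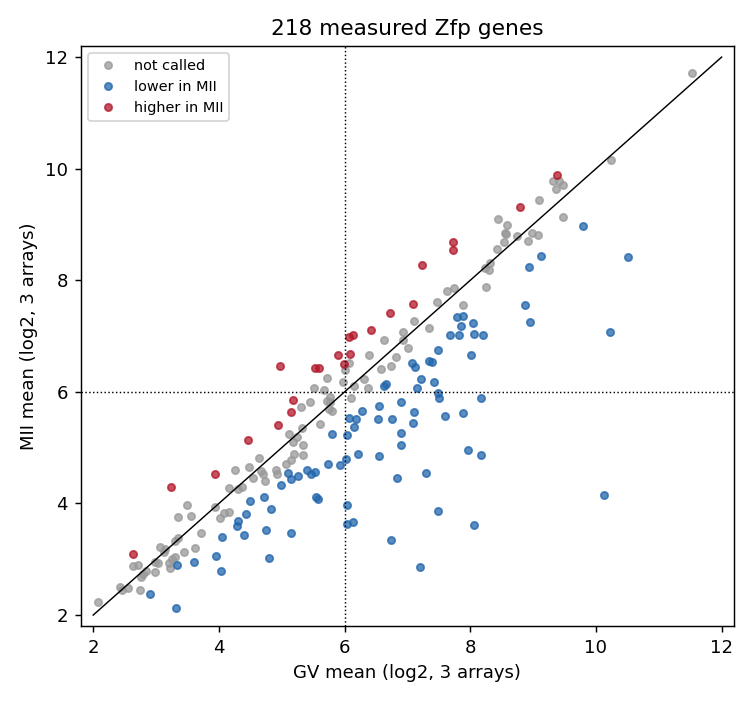
Mean log2 value in MII (vertical axis, 3 arrays) against GV (horizontal axis, 3 arrays) for the 218 measured Zfp genes, each point a gene coloured by its call, with dotted lines at the level of 6 and a solid line of equality. The points called lower reach far below the line, as deep as -5.98, and the points called higher stay within 1.49 of it.

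The differences spread widely. Over the 121 genes, MII minus GV ran from -5.98 to 1.49 on the log2 scale, with a median of -0.35, quartiles of -1.23 and 0.27 and an SD of 1.26. All genes at the level had a median of -0.32 and an SD of 1.22. The low side was long and the high side short: the 5% and 95% points of the Zfp genes were -3.15 and 0.83. Below zero lay 79 of the 121.

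The 78 Zfp genes with a mean above 6 in both stages had a narrower spread. Here the median was -0.10 and the SD 0.73, beside a median of -0.10 and an SD of 0.96 over all genes above 6 in both stages. In this set 26 Zfp genes were lower, or 33.3% against a background of 33.8%, and 11 were higher, or 14.1% against 16.4%. A fall of at least 2-fold was called for 9, or 11.5% against 19.6%. Of the 34 genes above 6 only in GV, 33 were called lower, with a median of -1.67, beside 94.6% and -1.87 over all genes above 6 only in GV. Of the 9 above 6 only in MII, 5 were called higher, with a median of 0.55, beside 63.7% and 0.62 over all such genes; the selection itself favours both directions. Among the 97 measured Zfp genes below the level, 29 were lower and 7 higher, with a median of -0.21, beside 24.6% and 4.84% of all genes below it.

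**Figure D2:**
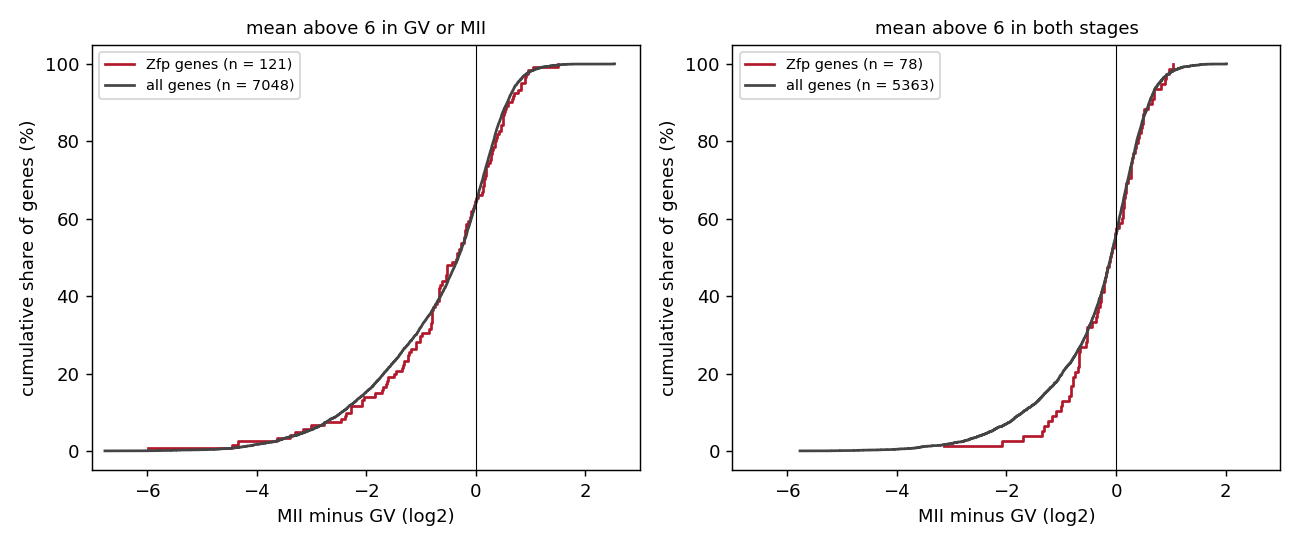
Cumulative share of genes (vertical axis, %) against MII minus GV (horizontal axis, log2) for Zfp genes and for all genes, with a mean above 6 in either stage (left, n = 121 and 7048) or in both (right, n = 78). On the left the lines nearly coincide, with medians of -0.35 and -0.32, and on the right the Zfp line has the shorter low tail.

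Genes near the level of 6 show how the choice worked. Just inside were Zfp408 with a GV mean of 6.02, Zfp646 with an MII mean of 6.03 and Zfp775 with a GV mean of 6.03. Just outside were Zfp84 with a GV mean of 5.93, Zfp282 with an MII mean of 5.90 and Zfp248 with an MII mean of 5.85.

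Among Zfp genes that lie side by side in the genome, falls and rises were called next to each other on the deposited scale, but not with hybridization or poly-A controls made equal. Sets were formed of 3 or more measured Zfp genes, each at most 10 places from the next. Places were counted in the RefSeq order of protein coding genes of GRCm38.p6. This gave 17 sets with 103 measured genes, 53 of them kept. Of these 53, 29 were lower (54.7%) and 8 higher (15.1%), with a median of -0.54 and an SD of 1.24. Of the 68 kept genes elsewhere, 30 were lower (44.1%) and 8 higher (11.8%), with a median of -0.25 and an SD of 1.28. All genes at the level had 46.0% lower and 14.1% higher, with a median of -0.32, and these shares were not tested against each other. In 6 sets both directions were called among neighbours. This was 7 with equal medians or after quantile normalization, 0 under either kind of control, and 4 to 5 without 1 array. Sets with 0 or 1 kept gene could not show both. Runs of neighbouring genes of other kinds were not counted, so no background share stands beside this number. The rise of Zfp708 and the fall of Zfp930, on which 2 of the 6 sets rest, were lost in 5 and 4 of the 6 fits that left out an array.

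The widest range within a set belonged to a group on chromosome 7 with 6 kept members, in the order Zfp235, Zfp111, Zfp109, Zfp108, Zfp61 and Zfp94. Zfp61 stood at 8.27, 8.07 and 7.82 on the GV arrays and at 4.04, 3.35 and 3.44 on the MII arrays, a fall of 4.45 ± 0.20 (SE, n = 3 per stage; adjusted p = 8.8e-08). Zfp111 went from 6.22, 6.03 and 6.16 to 3.84, 3.45 and 3.71, a difference of -2.47 ± 0.15 (adjusted p = 4.9e-07). Zfp94 went from 6.73, 7.01 and 6.76 to 4.04, 4.35 and 5.01, a difference of -2.37 ± 0.23 (adjusted p = 1.3e-05). In these 3 genes every MII array lay below every GV array by more than 1 log2 unit.

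Their neighbour Zfp108 fell less, from 7.20, 7.17 and 6.93 to 5.61, 5.66 and 5.65, which is -1.46 ± 0.14 (adjusted p = 1.1e-05). Zfp109, lying between Zfp111 and Zfp108, read 7.11, 7.24 and 6.96 in GV and 7.37, 7.30 and 7.14 in MII, and its difference of 0.17 ± 0.14 did not pass the test (adjusted p = 0.37). Zfp235 at the other end read 6.17, 6.48 and 6.60 in GV and 7.15, 6.86 and 7.29 in MII and rose by 0.69 ± 0.17 (adjusted p = 0.0077). The stages overlapped only in Zfp109 among these 6 genes.

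**Figure D3:**
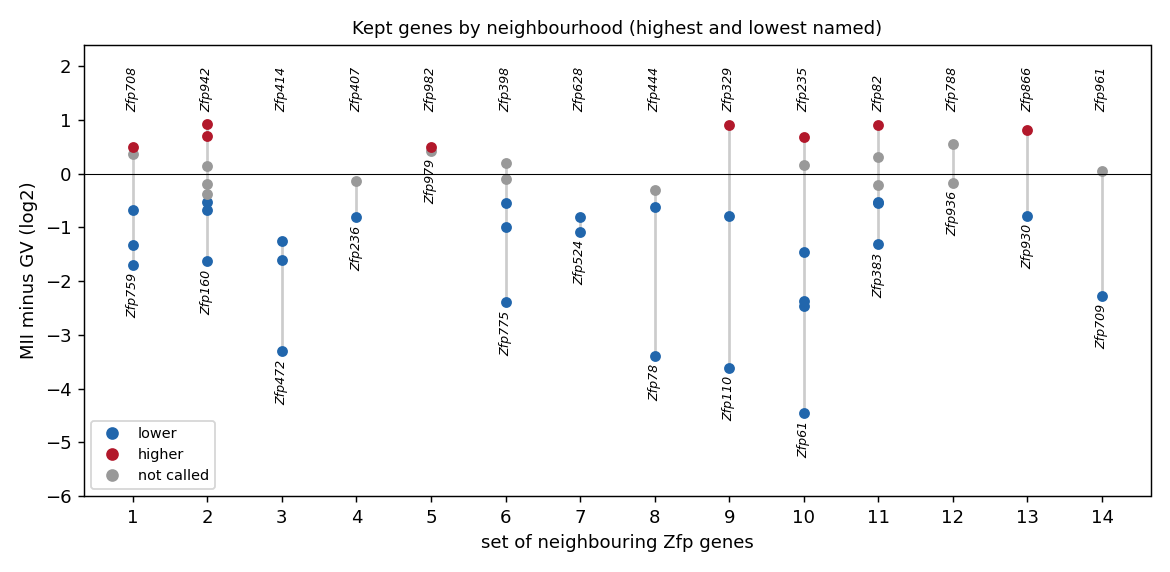
MII minus GV (vertical axis, log2) of the kept Zfp genes in each set of neighbours with more than 1 kept gene (horizontal axis, sets numbered in genome order), points coloured by call and the highest and lowest gene of each set named. The set that holds Zfp61 and Zfp235 spans -4.45 to 0.69.

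The start regions of 3 members of that set, and of 2 neighbours on chromosome 13, are shown because they share a 10-base word although their genes differed in size and direction of change. Zfp759 and Zfp708 lie in 1 set of 5 kept genes. Zfp759, chosen for this contrast after its values were seen, read 6.43, 6.59 and 6.63 in GV and 5.42, 4.73 and 4.4 in MII (-1.70 ± 0.23, adjusted p = 0.00017), while Zfp708 rose by 0.50. The other probe set of Zfp759 differed by -0.24 and was not called. The difference in direction rests on Zfp708 alone. Its call was lost in 5 of the 6 fits that left out an array, and it read -0.37 with poly-A controls made equal. The windows run from 250 bases before the annotated start to 50 after it, from RefSeq on GRCm38.p6, and capitals mark ACTACATTTC or its reverse complement. They are at chr7:24208100-24208399 on the minus strand for Zfp111 (1 of its 2 windows), chr7:24254544-24254843 on the plus strand for Zfp108, chr7:24316617-24316916 on the minus strand for Zfp94, chr13:67127978-67128277 on the plus strand for Zfp759 and chr13:67081496-67081795 on the minus strand for Zfp708.
Zfp111: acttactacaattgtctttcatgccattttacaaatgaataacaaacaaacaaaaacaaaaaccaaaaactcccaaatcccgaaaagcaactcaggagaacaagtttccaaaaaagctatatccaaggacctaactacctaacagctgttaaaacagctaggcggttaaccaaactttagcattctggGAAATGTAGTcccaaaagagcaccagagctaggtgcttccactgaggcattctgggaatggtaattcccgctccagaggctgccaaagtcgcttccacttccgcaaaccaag
Zfp108: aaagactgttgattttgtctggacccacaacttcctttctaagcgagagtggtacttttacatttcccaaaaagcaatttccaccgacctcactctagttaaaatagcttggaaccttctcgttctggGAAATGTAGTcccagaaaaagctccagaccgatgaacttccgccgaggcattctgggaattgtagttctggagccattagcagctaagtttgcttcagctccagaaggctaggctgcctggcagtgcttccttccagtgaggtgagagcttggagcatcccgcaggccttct
Zfp94: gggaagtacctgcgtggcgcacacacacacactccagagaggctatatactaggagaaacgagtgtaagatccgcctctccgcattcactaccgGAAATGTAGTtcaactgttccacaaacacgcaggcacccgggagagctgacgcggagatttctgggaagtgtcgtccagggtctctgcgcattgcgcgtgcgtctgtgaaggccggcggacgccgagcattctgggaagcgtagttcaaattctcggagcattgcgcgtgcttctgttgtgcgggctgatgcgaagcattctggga
Zfp759: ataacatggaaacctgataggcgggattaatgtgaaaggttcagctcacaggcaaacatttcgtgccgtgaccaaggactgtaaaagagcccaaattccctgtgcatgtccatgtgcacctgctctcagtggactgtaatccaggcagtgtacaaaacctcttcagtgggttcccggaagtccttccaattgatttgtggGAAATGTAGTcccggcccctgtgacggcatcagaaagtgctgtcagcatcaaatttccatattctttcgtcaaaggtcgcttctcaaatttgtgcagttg
Zfp708: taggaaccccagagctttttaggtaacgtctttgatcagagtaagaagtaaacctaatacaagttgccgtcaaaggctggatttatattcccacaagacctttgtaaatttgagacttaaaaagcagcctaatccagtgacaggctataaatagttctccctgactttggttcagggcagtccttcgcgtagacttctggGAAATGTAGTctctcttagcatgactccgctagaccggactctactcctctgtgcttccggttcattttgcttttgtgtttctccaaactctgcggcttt

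This word was picked from the windows themselves: of the 7 words of 10 bases found in windows of 10 or more kept Zfp genes, it was the one with the most of these genes per window of the whole table. It was in 12 of the 124 windows found for 99 of the 121 kept genes (9.68%), on either strand, beside 80 of 7500 windows of all genes at the level (1.07%) and 188 of 32851 windows in all (0.572%). The choice of word fixes that order. Of the 12 genes that carry it, 11 lie in the neighbour sets, where genes that arose by duplication share sequence, so the windows are not independent of each other. The carriers did not share a response on their brightest probe sets: 8 were called lower, 1 higher (Zfp708) and 3 not at all. Among all genes at the level, 46.0% were lower and 14.1% higher, and the carriers were not tested against these shares. The lower ones ran from Zfp111 (-2.47) to Zfp420 (-0.52), and Zfp790 (0.31), Zfp60 (0.22) and Zfp444 (-0.30) did not pass the test. The other probe set of Zfp790, with close signal in GV, was called lower (-0.97, adjusted p = 0.0002).

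Other promoter words were searched on both strands in the same way. The word CCGGAAG, read by ETS factors, was in 23.4% of the kept Zfp windows, 19.1% of windows of genes at the level and 8.86% of all windows. It was in 19 of 61 windows of Zfp genes called lower, 9 of 46 of those not called and 1 of 17 of those called higher, and these counts were not tested against each other. GGGCGG, the GC box, was in 50.0% of kept Zfp windows, below the 63.8% of genes at the level and above the 35.7% of all windows. TATAAA, the TATA box, was in 5.65%, beside 7.03% of genes at the level and 13.6% of all windows. CCAAT was in 41.9%, beside 38.7% and 37.4%, and AAGATGGC, part of a YY1 site, in 3.23%, beside 4.83% and 2.75%. These are shares of letters and not of bound sites.

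Of the other neighbour sets, Zfp472, Zfp952 and Zfp414 were all lower, with differences from -3.30 to -1.24. Zfp606 and Zfp110 were lower and Zfp329 between them was higher, over a range of -3.62 to 0.90, but Zfp606 kept its call only without GV replicate 2 among the 6 leave-one-out fits. Zfp930 (-0.79) and Zfp866 (0.82) were called in opposite directions, the call of Zfp930 being lost without GV replicate 2, GV replicate 3, MII replicate 2 or MII replicate 3. The largest set, with 8 kept of 18 measured genes from Zfp160 to Zfp946, had 3 lower, 2 higher and a range of -1.63 to 0.92.

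The largest fall of all was that of Zfp839, whose function is little known. It read 10.22, 9.86 and 10.29 in GV and 4.08, 4.0 and 4.37 in MII, a difference of -5.98 ± 0.17 (adjusted p = 1.1e-08), and it went from among the brighter Zfp probe sets to under the median of each MII array. Zfp182, an X-linked gene, read 7.16, 7.05 and 7.39 in GV and 2.74, 2.81 and 3.06 in MII (-4.33 ± 0.15). Zfp110, which encodes a partner of the neurotrophin receptor p75, read 7.57, 7.43 and 7.45 in GV and 4.03, 4.24 and 3.32 in MII (-3.62 ± 0.22). In each of these genes the stages were apart by over 3 log2 units between the nearest arrays.

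Zfp78 read 6.72, 6.86 and 6.62 in GV and 3.10, 3.87 and 3.06 in MII, a difference of -3.39 ± 0.21. Zfp472 read 8.17, 8.0 and 8.33 in GV and 4.31, 5.02 and 5.26 in MII (-3.30 ± 0.23). Zfp296, known from germ cells and pluripotent cells, read 10.10, 10.54 and 10.03 in GV and 6.92, 7.01 and 7.30 in MII (-3.15 ± 0.18), and it was the member among the 12 largest falls that stayed above 6 in both stages. Its fall was thus measured well above the array median on both sides.

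Zfp830, needed for splicing and for the early embryo, read 7.95, 8.09 and 7.85 in GV and 4.73, 5.37 and 4.79 in MII (-3.00 ± 0.19). Zfp512 read 7.56, 7.35 and 6.99 in GV and 4.44, 4.17 and 5.01 in MII (-2.76 ± 0.23). Zfp775, just inside the level, read 6.05, 6.08 and 5.97 in GV and 3.38, 3.82 and 3.71 in MII (-2.40 ± 0.15). With Zfp61, Zfp111 and Zfp94 these make up the 12 largest falls, and 11 of them, all but Zfp296, finished under the lowest MII array median of 5.47. Of all 59 falls 20 ended so low. The table has no measure of background, so whether such low values are above it is unknown.

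**Figure D4:**
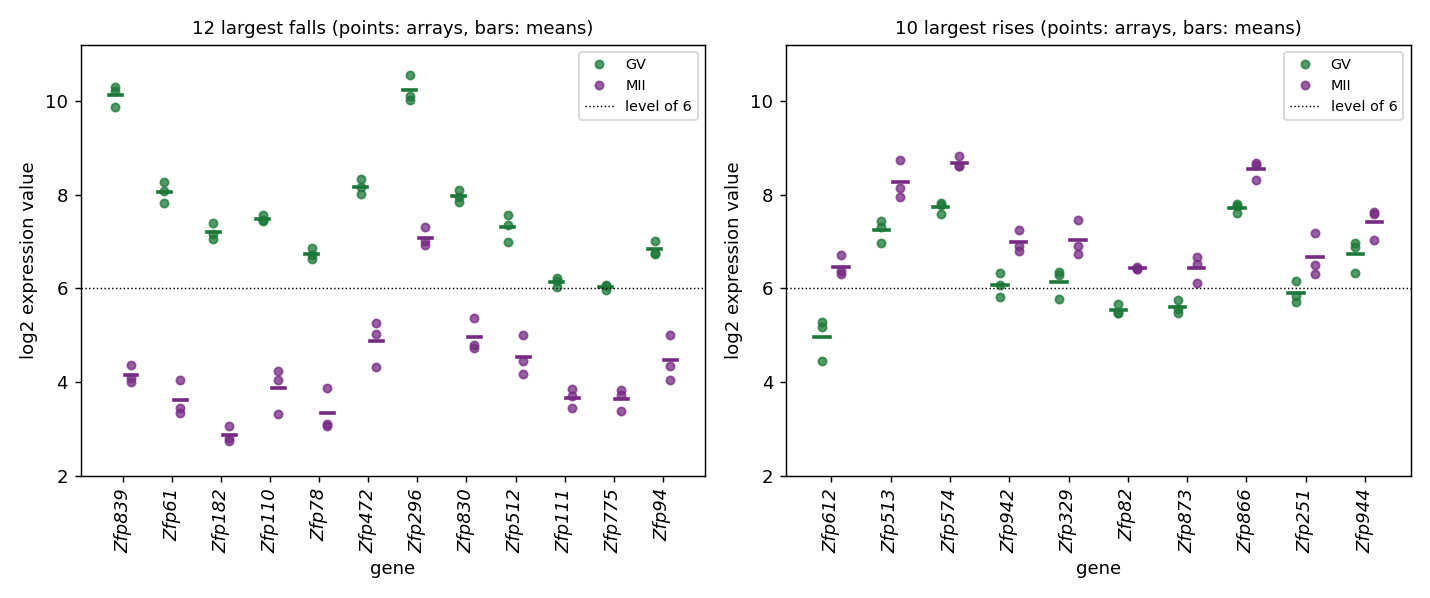
Log2 value on each array (vertical axis; points are arrays, bars are stage means, n = 3 per stage) of the 12 Zfp genes with the largest falls and the 10 with the largest rises, with a dotted line at the level of 6. In every gene shown the stages do not overlap, and the gaps of the falls, -5.98 to -2.37, are wider than those of the rises, 0.69 to 1.49.

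Rises were smaller. Zfp612 read 5.28, 4.44 and 5.18 in GV and 6.29, 6.71 and 6.37 in MII, a rise of 1.49 ± 0.23 (adjusted p = 0.00036). Zfp513, a retinal gene, read 7.44, 7.31 and 6.97 in GV and 7.95, 8.74 and 8.15 in MII (1.04 ± 0.21, adjusted p = 0.0028). These were the 2 rises of at least 2-fold, and of them Zfp513 was above 6 in both stages.

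Zfp942 read 6.06, 5.81 and 6.32 in GV and 6.80, 6.91 and 7.24 in MII (0.92 ± 0.18, adjusted p = 0.0018). Zfp329 read 6.35, 5.77 and 6.28 in GV and 6.90, 7.46 and 6.72 in MII (0.90 ± 0.22, adjusted p = 0.0079). Zfp82, of the KRAB kind, read 5.66, 5.47 and 5.47 in GV and 6.42, 6.45 and 6.42 in MII (0.90 ± 0.13, adjusted p = 0.00028). In these 3 genes the stages did not overlap.

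Zfp866 read 7.80, 7.61 and 7.76 in GV and 8.68, 8.64 and 8.30 in MII (0.82 ± 0.15, adjusted p = 0.0014). Zfp873 read 5.75, 5.48 and 5.57 in GV and 6.11, 6.67 and 6.51 in MII (0.83 ± 0.17, adjusted p = 0.0027). Zfp251 rose by 0.77 ± 0.23 (adjusted p = 0.019) and Zfp944 by 0.69 ± 0.22 (adjusted p = 0.025), but Zfp251 was no longer called without GV replicate 1, GV replicate 3 or MII replicate 2, and Zfp944 without GV replicate 2, MII replicate 1 or MII replicate 3. Of the 16 rises, 7 began below the median of every GV array.

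The direction of Zfp574 depended on the probe set. The probe set with the highest mean read 7.58, 7.77 and 7.82 in GV and 8.61, 8.83 and 8.61 in MII (0.96 ± 0.14, adjusted p = 0.00029). The other 2 probe sets of the gene fell by 2.11 and by 1.32, and the first of them was the brightest in GV, at 9.61, 9.03 and 8.97 against 6.96, 7.32 and 7.01 in MII. Zfp574 is therefore listed among the rises by the rule, while no single direction holds for the gene.

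Of the 121 genes, 45 had several probe sets, and in 22 of these the differences of the probe sets lay more than 1 log2 unit apart. In 4 genes probe sets were called in opposite directions: Zfp574, Zfp148, Zfp930 and Zfp106. For Zfp148, the transcription factor ZBP-89, the brightest of 6 probe sets did not pass the test (0.15 ± 0.16), another was lower by -1.41 and another higher by 1.13. For Zfp930 the brightest was lower (-0.79, adjusted p = 0.022) and the other higher (0.94). Weaker disagreement touched some of the largest falls: the other probe set of Zfp78 differed by 0.02, that of Zfp111 by -0.19, and 3 others of Zfp830 by -0.38, -0.16 and -0.14, none of them called. The other 2 probe sets of Zfp110 were both lower, at -4.20 and -1.09. Among the largest rises, other probe sets differed by -0.03 for Zfp612, -0.06 for Zfp944 and -0.21 and -0.15 for Zfp329, none of them called.

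Of the 8 brightest members, Zfp277 fell, Zfp106 rose and 6 did not pass the test. Zfp655, a partner of the Vav signalling protein, had the highest signal: 11.49, 11.51 and 11.60 in GV and 11.71, 11.62 and 11.82 in MII, a difference of 0.19 ± 0.13 that did not pass the test (adjusted p = 0.29) although the stages did not overlap. Another of its probe sets, with means of 8.17 in GV and 8.66 in MII, was called higher (0.49, adjusted p = 0.021). A further one differed by 0.52 and was not called (adjusted p = 0.063). Zfp212 read 10.22, 10.32 and 10.19 in GV and 10.05, 10.13 and 10.26 in MII (-0.10 ± 0.13). Zfp277, a partner of the Polycomb protein Bmi1, read 10.48, 10.71 and 10.34 in GV and 8.26, 8.62 and 8.40 in MII, a fall of 2.08 ± 0.16 (adjusted p = 2.3e-06), or 4.24-fold; its other probe set differed by -0.02. The others that did not pass were Zfp58, Zfp60, Zfp120 and Zfp46.

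For 6 genes above 8 in both stages the difference was closest to zero. Zfp91, an E3 ubiquitin ligase, read 8.63, 8.31 and 8.02 in GV and 8.45, 8.31 and 8.16 in MII, with a 95% interval of -0.41 to 0.38. Zfp638, which takes part in silencing unintegrated retroviral DNA, had an interval of -0.37 to 0.32, and Zfp961 one of -0.30 to 0.39. Zfp451, a SUMO ligase, had one of -0.41 to 0.20, Zfp598, the ligase that marks collided ribosomes, one of -0.22 to 0.48, and Zfp212 one of -0.39 to 0.20. A change of 2-fold lay outside each of these intervals for these probe sets on the deposited scale. Dimmer probe sets differed for 2 of the genes: another of Zfp638 was higher by 0.91 (adjusted p = 0.015) and another of Zfp451 lower by -0.49 (adjusted p = 0.016).

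Of 15 measured genes of a list of 19 that act on RNA, ribosomes or protein modification, 11 were kept. Of these 3 were lower (27.3%) and 1 was higher (9.09%), beside 46.0% and 14.1% of all genes at the level, and 7 did not pass the test, with a median of -0.01. The falls were Zfp830, Zfp593, a factor of large ribosomal subunit assembly, and Zfp207, which loads the checkpoint protein Bub3 at kinetochores and helps build the spindle. Zfp593 read 6.54, 7.20 and 6.98 in GV and 4.78, 5.20 and 5.19 in MII (-1.85 ± 0.20, adjusted p = 2.7e-05). Zfp207 read 7.25, 7.54 and 7.40 in GV and 6.42, 6.25 and 6.95 in MII (-0.86 ± 0.19, adjusted p = 0.0044). With equal medians Zfp207 was not called (-0.23, adjusted p = 0.28).

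The rise in that list was Zfp106, an RNA-binding protein needed in motor neurons, at 9.35, 9.41 and 9.39 in GV and 9.80, 9.94 and 9.89 in MII (0.50 ± 0.13, adjusted p = 0.0097). Its other 2 probe sets, both far dimmer, fell by 0.46 and by 0.99. Zfp330 (0.27), Zfp692 (0.45) and Zfp740 (-0.00) were among the 7 that did not pass. Zfp622, another ribosome assembly factor, lay below the level and was lower by -0.79 ± 0.18 (adjusted p = 0.0043).

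Among factors of transcription and chromatin, more were lower than higher, as among all genes. Of 31 measured genes of a list of 40, 17 were kept. Of these 7 were lower (41.2%), 1 was higher (5.88%) and 9 did not pass, beside 46.0% and 14.1% of all genes at the level. The median was -0.34, close to the -0.32 of all genes at the level. After Zfp296 the next falls were Zfp276 (6.85, 6.87 and 6.95 in GV against 5.27, 5.20 and 5.31 in MII, -1.63 ± 0.13) and Zfp652 (7.20, 7.47 and 7.57 against 6.16, 5.99 and 6.41, -1.23 ± 0.16). The other probe set of Zfp276 differed by 0.21. Zfp384, a nuclear matrix protein also called CIZ, fell by 1.09 ± 0.15.

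Zfp592, Zfp532 and Zfp687, whose proteins form a complex with Zmynd8, were all lower. Zfp592 went from 9.65, 9.75 and 9.98 to 8.98, 8.53 and 9.39 (-0.82 ± 0.21, adjusted p = 0.0096). Zfp532 went from 7.89, 8.25 and 8.02 to 6.94, 7.01 and 7.17 (-1.01 ± 0.15, adjusted p = 0.00027). Zfp687 went from 6.36, 6.59 and 6.66 to 5.44, 5.61 and 5.49 (-1.02 ± 0.14, adjusted p = 0.00018). The stages did not overlap in any of the 3. The other probe sets of Zfp592 fell by 2.05 and by 0.94. With equal medians Zfp592 was no longer called (-0.20, adjusted p = 0.40). After quantile normalization neither Zfp592 (-0.41, adjusted p = 0.12) nor Zfp532 (-0.38, adjusted p = 0.053) was called.

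The rise in this list was Zfp703, a corepressor of the NET family, with 0.59 ± 0.18 (adjusted p = 0.021), which was not called without GV replicate 3, MII replicate 2 or MII replicate 3. The pluripotency genes Zfp42 (Rex1) and Zfp281 lay below the level: Zfp42 read 3.89, 3.85 and 4.34 in GV and 2.49, 2.84 and 3.02 in MII (-1.24 ± 0.19, adjusted p = 0.00036), and Zfp281 4.57, 4.48 and 4.45 against 4.01, 4.24 and 3.88 (-0.46 ± 0.14, adjusted p = 0.025). Both were under every array's median throughout.

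Of 16 measured genes of a list of 31 taken as KRAB repressors, 11 were kept. The list was set by gene symbol, and neither the KRAB domain nor repression was checked here. Their shares of 45.5% lower and 18.2% higher lay near the 46.0% and 14.1% of all genes at the level. Among the 11, 5 were lower (Zfp110, Zfp78, Zfp932, Zfp473 and Zfp74), 2 higher (Zfp82 and Zfp708) and 4 did not pass, with a median of -0.21. Zfp932, which represses endogenous retroviruses, read 8.89, 8.97 and 9.0 in GV and 7.32, 7.11 and 7.33 in MII (-1.70 ± 0.13, adjusted p = 3.1e-06). Zfp473 read 9.04, 8.97 and 8.81 in GV and 8.17, 8.27 and 8.27 in MII (-0.70 ± 0.13, adjusted p = 0.0017), but it was not called with equal medians (-0.08, adjusted p = 0.62). Zfp74 (-0.55 ± 0.18, adjusted p = 0.034) lost its call in every leave-one-out fit except that without MII replicate 1, and Zfp708 (0.50 ± 0.17, adjusted p = 0.035) in every such fit except that without GV replicate 3.

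Zfp568, which silences a placental transcript of Igf2, read 8.75, 9.12 and 8.87 in GV and 8.53, 8.70 and 8.87 in MII, and its difference of -0.21 did not pass. A far dimmer probe set of Zfp568, with means of 3.16 in GV and 3.85 in MII, was called higher (0.69, adjusted p = 0.023). Zfp445, which helps keep parental imprints, read 8.23, 8.20 and 8.91 in GV and 9.61, 8.85 and 8.85 in MII (0.66 ± 0.25, adjusted p = 0.056). A second probe set of Zfp445 with close signal was lower, at 8.92, 8.71 and 8.76 against 7.92, 7.77 and 7.48 (-1.07), so no direction is given for this gene.

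The cofactors of these repressors were read beside them. Of 18 measured of 22 listed, 5 were lower (27.8%), 3 higher (16.7%) and 10 did not pass, with a median of -0.01. All genes measured had 37.8% lower and 10.5% higher, with a median of -0.20. Trim28, the corepressor that KRAB domains bind, read 10.51, 10.31 and 10.01 in GV and 10.68, 10.99 and 10.79 in MII (0.54 ± 0.17, adjusted p = 0.023), but -0.33 with poly-A controls made equal. Setdb1 rose by 0.61 ± 0.17 (adjusted p = 0.015) and Chd4, the remodeller of the NuRD complex, by 0.95 ± 0.17 (adjusted p = 0.0012), but Setdb1 turned to -0.50 when all its probe sets were averaged and to -0.26 with poly-A controls made equal. Cbx5, a heterochromatin protein that reads methylated histone H3, read 7.12, 7.40 and 7.37 in GV and 5.09, 4.36 and 3.87 in MII (-2.85), and the related Cbx1 fell by 0.85. Dnmt1, Mta1 and Hdac1 were the other 3 called lower.

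Other zinc finger families had spreads of the same order. Of 17 Zbtb genes at the level, 10 were lower (58.8%) and 2 higher (11.8%), with a median of -0.43 and an SD of 0.81. Of 10 Zscan and Zkscan genes, 5 were lower and 1 higher, with a median of -0.65 and an SD of 1.36. Over all genes at the level, 46.0% were lower and 14.1% higher, with a median of -0.32 and an SD of 1.22. The differences between families, and between each family and all genes at the level, were not tested.

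Replicates of a stage were close for most members. The median within-stage SD of the kept Zfp genes was 0.171 in GV and 0.209 in MII, beside 0.178 and 0.177 for all genes at the level. The widest were Zfp957, with 9.98 on GV replicate 1 against 8.70 and 8.62, Zfp58, with 10.53 on MII replicate 1 against 9.35 and 9.45, and Zfp788 and Zfp160, with SDs of 0.65 and 0.64. Of the 75 called genes, 59 (48 lower and 11 higher) were called in each of the 6 fits that left out 1 array.

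The number of rises and the sign of the median depended on the scale between arrays. With array medians made equal, which shifts all probe sets by 0.62, 55 Zfp genes were higher and 36 lower (median 0.28), and after quantile normalization 50 were higher and 35 lower (median 0.21). With the hybridization controls made equal 1 was higher and 58 lower, and with the poly-A controls made equal 1 was higher and 95 lower. These controls have limits. Hybridization controls averaged 9.82, 8.97 and 8.94 on the GV arrays and 9.86, 9.66 and 9.42 on the MII arrays, so they differed within a stage. Poly-A controls averaged 4.71, 4.28 and 4.31 in GV and 5.14, 5.43 and 5.34 in MII, below the median of each array. The genes at the level moved alongside: the share of calls that were falls was 78.7% for Zfp genes and 76.6% for these genes as deposited. It was 39.6% and 40.2% with equal medians and 41.2% and 44.3% with quantiles matched, and 98.3% and 98.5% under the hybridization controls and 99.0% and 99.5% under the poly-A controls. Shifting whole arrays by their controls adds the same deviation to every probe set of an array. For Zfp839 the limma adjusted p was 1.6e-64 with hybridization controls made equal, against 1.1e-08 as deposited. Such p-values reflect the shift of whole arrays and not only the spread of each gene, so calls under the controls carry less weight. The same direction was called in all 5 scalings for 35 falls, the 12 largest among them. The rise of Zfp612 was also called in all 5 (0.62 to 2.12), on its brightest probe set only, its other one differing by -0.03 as deposited. With poly-A controls made equal Zfp106 was -0.38, Zfp235 -0.19, Zfp703 -0.29 and Zfp708 -0.37.

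**Figure D5:**
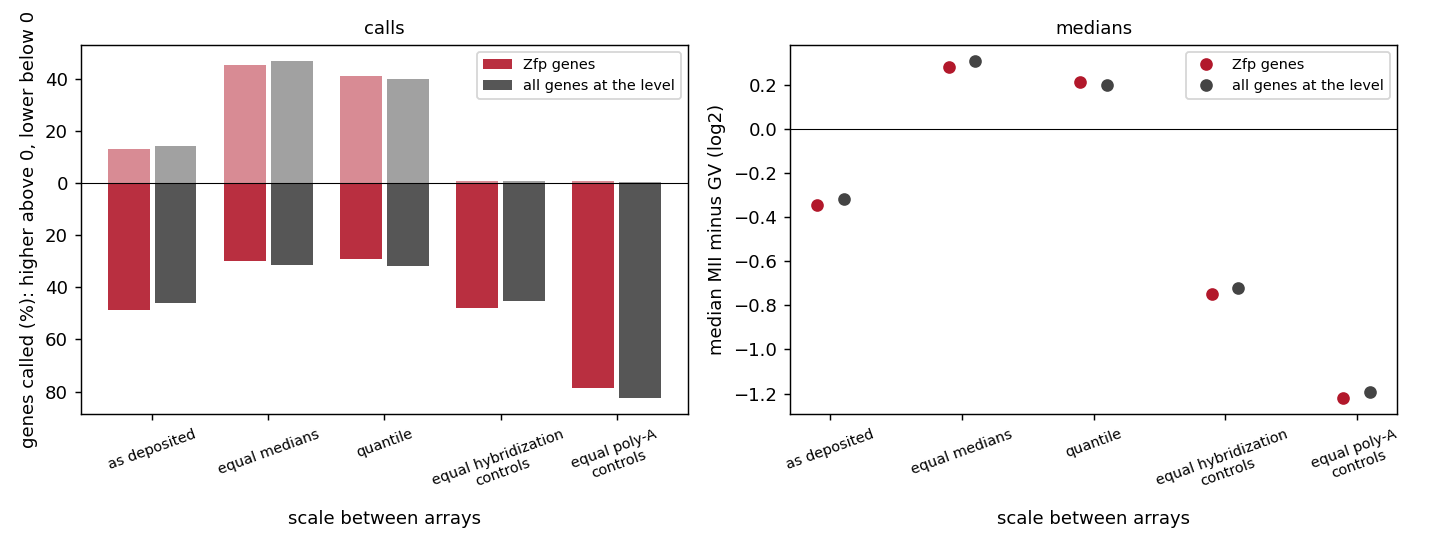
Share of genes called (left, %; higher above 0 in the lighter shade, lower below 0) and median MII minus GV (right, log2) for the 121 kept Zfp genes and the 7048 genes at the level, under 5 scales between arrays (horizontal axis). Zfp genes and all genes shift together, from a Zfp median of 0.28 with equal medians to -1.22 with equal poly-A controls.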

How the data were processed

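The arrays were of 3 GV and 3 MII samples, grouped by their labels. The deposited log2 values, for 21702 probe sets, had been made by the authors with RMA and the affy package, per the submitters' processing notes, which name no versions. RMA corrects background, matches quantiles and summarises probes; all arrays held the same 7077 distinct values, yet their medians over the deposited probe sets differed. After leaving out 56 control probe sets, 21646 were fitted by stage with limma (lmFit, then eBayes; version 3.58.1, R 4.3.3), 2-sided, with Benjamini-Hochberg adjustment over all of them and a threshold of 0.05. Each gene was read from its brightest probe set over the 6 arrays, among those with 1 symbol in the platform annotation. Gene order and promoters came from RefSeq (GRCm38.p6). Arrays have no read depth, and their number limits the precision; p-values measure the spread between these samples, which may be technical in part. Values of different probe sets are not compared as amounts.

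Members and lists were chosen with earlier results of these data known. Genes named are the 12 largest falls and 10 largest rises called without overlap, the 8 brightest, the 6 with the smallest difference above 8, the leading members of each list, those with opposing probe sets, those nearest the level of 6 and a fixed set. The titles do not say that replicate numbers pair the samples, and no block was used. The code was tested on simulated data. Alternatives were other scalings, filters, probe set rules, no variance moderation, a replicate block and leaving out each array.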

Additional observations from a re-analysis of the deposited data

How the results depend on the processing

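As deposited, 59 Zfp genes were lower and 16 higher, with a median of -0.35. Scaling changed these most: 36 lower and 55 higher, median 0.28, with array medians made equal; 35, 50 and 0.21 after quantile normalization; 1 higher and a median of -0.75 with hybridization controls made equal; 95 lower, 1 higher and -1.22 with poly-A controls made equal. Without variance moderation 10 were higher. Filters and probe set rules moved the median: -0.21 with only probe sets above the median, -0.21 for a mean over 6 arrays above 6, -0.26 with no minimum, -0.48 with the probe set brightest in its brighter stage, and -0.10 with a mean above 6 in both stages, where 26 were lower. A mean above 7 left 38 lower and 9 higher. Leaving out 1 array gave 12 to 16 higher, 50 to 55 lower and medians of -0.45 to -0.32. A replicate block over the 4 arrays numbered 2 and 3 gave a median of -0.41 (57 lower, 18 higher), and the same 4 arrays without the block -0.41 (56 lower, 14 higher), the latter chosen after seeing the data. Deviations of arrays numbered 2 and of arrays numbered 3 correlated at 0.029 and 0.027. This showed no shared deviation but cannot exclude a shared batch, and the labels do not say what the numbers mean. The causes were not tested.

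Among the genes named by the rules given above, those listed here were either called as deposited and changed sign, or uncalled and then called in the opposite direction. Uncalled genes that changed sign without a call are left out. Other genes mentioned in the text are not in the list and can turn as well. For example, equal poly-A controls gave Zfp109 -0.70, Zfp330 -0.61 and Zfp790 -0.56, and equal medians gave Zfp740 0.62, Zfp420 0.10 and Zfp74 0.073. The scaling values include the shift of all probe sets that each scaling brings (0.62 with equal medians, 0.34 after quantile normalization, -0.87 with equal poly-A controls). Equal medians gave Zfp212 0.53, Zfp91 0.61, Zfp638 0.60, Zfp451 0.52, Rbbp4 0.62, Uhrf1 0.62, Trim33 0.56, Zfp281 0.17, Zfp568 0.41, Zfp407 0.49 and Zfp936 0.45. Quantile normalization gave Zfp91 0.55, Zfp638 0.54, Zfp451 0.47, Trim33 0.36 and Zfp936 0.50. Equal poly-A controls gave Zfp873 -0.039, Zfp866 -0.055, Zfp251 -0.10, Zfp944 -0.18, Zfp655 -0.69, Zfp106 -0.38, Zfp60 -0.65, Zfp46 -0.60, Zfp961 -0.83, Zfp598 -0.74, Zfp703 -0.29, Zfp708 -0.37, Trim28 -0.33, Setdb1 -0.26, Cbx3 -0.75, Hdac2 -0.74, Rbbp7 -0.82, Smarcad1 -0.67, Dnmt3a -0.64, Zfp148 -0.73, Zfp282 -0.74, Zfp248 -0.21, Zfp982 -0.37, Zfp398 -0.68 and Zfp235 -0.19. The mean of all probe sets gave Zfp574 -0.82, Zfp106 -0.32, Zfp638 0.44, Setdb1 -0.50, Dnmt3a -0.82, Zfp930 0.073 and Zfp646 -0.40. The probe set brightest in its brighter stage gave Zfp574 -2.11, and without _s_at and _x_at probe sets Zfp445 was -1.07. A finger count from protein sequences was planned and is not analysed here.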
